A study of Homo sapiens with 4 samples.

Results

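The 8 well-known long noncoding RNA genes, MALAT1, NEAT1, PVT1, KCNQ1OT1, SNHG5, SNHG16, GAS5 and OIP5-AS1, were followed through total RNA and double-stranded RNA (dsRNA) libraries of NCI-H1944, an established human lung adenocarcinoma cell line listed as wild type. Cells were given MPS1i, here 100 nM BAY-1217389, or the solvent DMSO for 48 h, and the drug was then washed out for 24 h. MPS1, the product of TTK, is a kinase that mitotic cells need for a working spindle checkpoint. Of each lysate, 10% gave the Input library, and the remainder was precipitated with J2, an antibody that binds dsRNA. This makes 4 groups of 1 library, namely Input and J2 from DMSO cells and Input and J2 from MPS1i cells. The members were taken as the regions whose Gene Name is 1 of the 8 genes, which were 680 of 2310971 regions in the Input table and 1116 of 3814162 in the J2 table. All 8 names occurred in both tables.

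Long noncoding RNAs act as RNA and are not translated. MALAT1 and NEAT1 are nuclear transcripts, found at nuclear speckles and at paraspeckles, which NEAT1 scaffolds. KCNQ1OT1 is an imprinted transcript antisense to KCNQ1 that silences neighbouring genes in cis. PVT1 is a long gene downstream of MYC, OIP5-AS1 (cyrano) is a conserved cytoplasmic RNA known to promote decay of the microRNA miR-7, and SNHG5, SNHG16 and GAS5 carry small nucleolar RNAs (snoRNAs) in their introns, released when the host transcript is spliced. Pairs of inverted repeats in introns, Alu elements above all, are a known source of dsRNA in human cells.

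The start regions of OIP5-AS1 and SNHG16 are shown because a region listed on the opposite strand has an end near them. In Input and J2 alike, it runs along most of the gene. Each sequence is the RefSeq window of 300 bases on GRCh38.p14, plus strand, from 250 bases before the RefSeq start, and capitals mark the part inside the opposite-strand J2 region (72 bases for OIP5-AS1, chr15:41283740-41284039, and 49 bases for SNHG16, chr17:76557514-76557813).
OIP5-AS1: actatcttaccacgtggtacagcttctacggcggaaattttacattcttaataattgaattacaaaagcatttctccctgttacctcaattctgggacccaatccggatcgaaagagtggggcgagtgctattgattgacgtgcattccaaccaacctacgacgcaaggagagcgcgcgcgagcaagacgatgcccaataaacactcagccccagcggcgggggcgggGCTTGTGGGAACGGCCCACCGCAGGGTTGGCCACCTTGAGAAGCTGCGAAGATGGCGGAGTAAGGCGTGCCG
SNHG16: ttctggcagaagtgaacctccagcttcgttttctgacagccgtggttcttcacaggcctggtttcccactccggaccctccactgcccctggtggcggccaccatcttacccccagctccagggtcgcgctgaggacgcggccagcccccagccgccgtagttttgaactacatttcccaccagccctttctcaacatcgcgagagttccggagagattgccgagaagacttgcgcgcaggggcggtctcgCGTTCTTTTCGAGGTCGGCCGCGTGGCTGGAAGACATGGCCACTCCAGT
This end of the opposite-strand region lay at offset -22 from the RefSeq start of OIP5-AS1 and at offset 1 from that of SNHG16. Both regions are listed on the minus strand, so it is their downstream end and not where minus-strand RNA would begin. Both windows held 23 CpG dinucleotides, with a GC content of 54.3% for OIP5-AS1 and 61.7% for SNHG16.

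The label under which these genes are usually grouped, abundant RNAs, did not show in the counts. The 680 and 1116 regions held 3493 reads in DMSO Input, 2783 in MPS1i Input, 6189 in DMSO J2 and 2657 in MPS1i J2, between 0.0397% and 0.0632% of a library. Levels are given as CPM, counts per 1000000 counts of the library. No region on the genes' own strand overlapped MALAT1 (chr11:65497688-65506516, plus strand), NEAT1 (chr11:65422774-65445540, plus) or KCNQ1OT1 (chr11:2608328-2699994, minus) in either table. Own-strand regions over an exon were 1 in Input and 2 in J2 for PVT1 and 1 in J2 for OIP5-AS1, and there were none for SNHG5, SNHG16 or GAS5. Over the whole tables, 0.314% of Input regions and 0.248% of J2 regions overlapped an exon on their strand. The mature forms of these RNAs are therefore not measured here. The values below are of intronic RNA, of the opposite strand, of flanking sequence or of sequence annotated as intergenic.

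The Input libraries held 6381610 counts (DMSO) and 4844956 (MPS1i), the J2 libraries 9793355 (DMSO) and 6697479 (MPS1i), and mitochondrial regions took 24.3% and 20.2% of the Input libraries against 0.608% and 0.836% of the J2 libraries. Scaling without them would lower each log2 ratio of J2 over Input by 0.39 in DMSO and 0.31 in MPS1i. Since each group is a single library, nothing could be tested across replicates. Ratios carry exact 95% Clopper-Pearson intervals, which cover counting error only, and a gene is called higher or lower when its 2 counts sum to at least 50, the ratio is at least 2-fold and the interval excludes 1. Such a call compares 2 libraries, not the conditions. CPM is a share of each library, so the total amount of RNA is not measured. Whether fewer cells held a given RNA or each cell held less of it cannot be told apart.

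**Figure D1:**
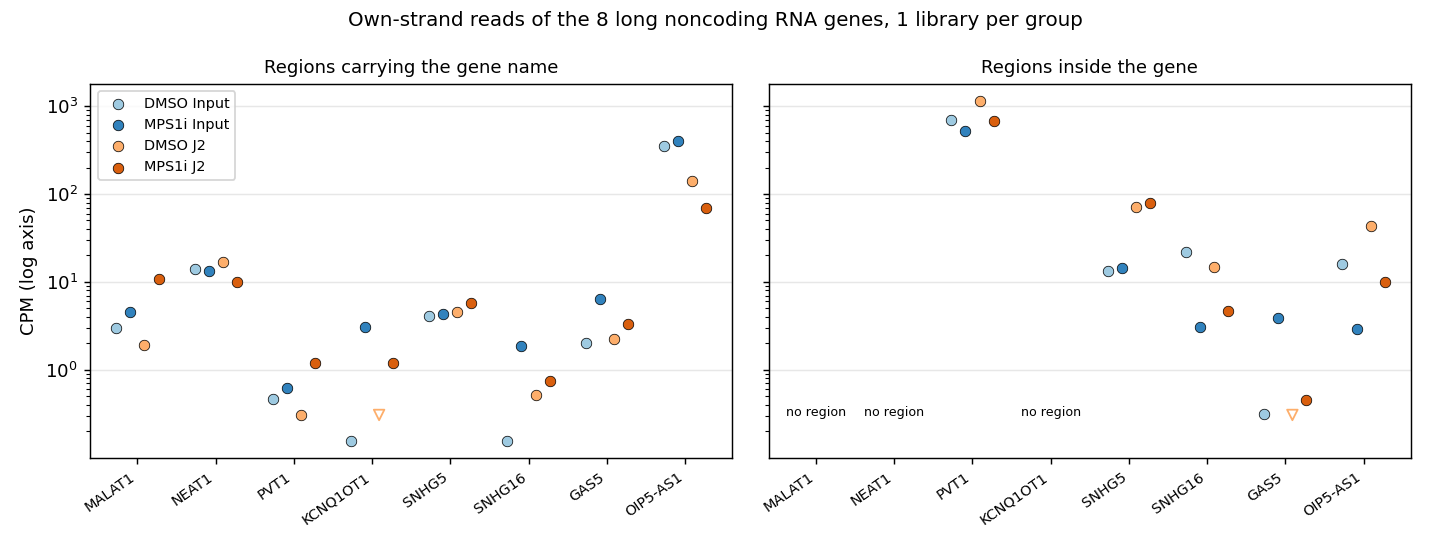
Own-strand level of each gene in CPM (log axis), 1 point per library, for regions carrying the gene's name (left) and regions lying inside the annotated gene (right); an open triangle marks a count of 0, drawn at the level of 3 counts. PVT1 moved from under 2 CPM by name to between 518 and 1155 CPM inside the gene, while MALAT1, NEAT1 and KCNQ1OT1 had no region inside.

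Where the named regions lay differed from where the genes lie. OIP5-AS1 had the most own-strand reads by name, 2254 in DMSO Input, 1955 in MPS1i Input, 1394 in DMSO J2 and 470 in MPS1i J2, but 2153, 1941, 971 and 403 of these lay in CHP1, the upstream gene on the same strand. CHP1 encodes a calcineurin-like calcium-binding protein. All own-strand reads named MALAT1 lay outside annotated genes of that strand. Of the own-strand reads named NEAT1, 31, 17, 125 and 47 (in the same order of libraries) lay in FRMD8 and the others lay outside genes. In reverse, regions inside PVT1 carried the names of MIR1204 to MIR1208 and TMEM75 as well as PVT1, those inside SNHG5 the name SNORD50A, and those inside SNHG16 the names SNORD1A and SNORD1B. Both assignments are given below, by name and inside the gene.

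PVT1 (chr8:127794533-128101253, plus strand, GENCODE 29 on GRCh38) was the best measured of the 8. Inside it lay 745 Input regions covering 153.5 kb and 743 J2 regions covering 213.0 kb. The counts were 4429 in DMSO Input, 2512 in MPS1i Input, 11310 in DMSO J2 and 4595 in MPS1i J2, or 694 CPM, 518 CPM, 1155 CPM and 686 CPM. DMSO J2 was thus the highest library and MPS1i Input the lowest. MPS1i over DMSO was -0.75 on the log2 scale in J2 (95% interval -0.80 to -0.70) and -0.42 in Input (-0.49 to -0.35). Both intervals exclude 0, and neither value reaches 2-fold. Over all genes the medians were -0.22 in J2 and -0.23 in Input (quartiles -0.87 to 0.52 and -0.77 to 0.40), so PVT1 sat between the lower quartile and the median in both.

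J2 over Input for PVT1 was 0.73 (0.68 to 0.79) in DMSO and 0.40 (0.33 to 0.47) in MPS1i, and the change of this ratio with MPS1i was -0.33 (-0.42 to -0.24). Per kb of covered region the ratios were 0.26 and -0.07, and over regions matched between the tables they were 0.49 and 0.18. The direction in MPS1i thus depends in part on how covered length is treated. Under the alternative settings the sign turned in 1 of 10 for DMSO and 2 of 10 for MPS1i. For MPS1i over DMSO it turned in 1 of 8 for Input and 0 of 8 for J2. Of the 7937 genes with enough counts, CNOT9, a subunit of the deadenylase complex CCR4-NOT, lay nearest to PVT1 over 3 log2 ratios from the 4 libraries (distance 0.043).

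Along PVT1 the lower J2 level under MPS1i held in all 7 bins of 50 kb (the last one shorter), from -0.31 (50 to 100 kb from the start) to -1.28 (250 to 300 kb). Input behaved differently near the start. In the first 50 kb DMSO Input had 104 CPM and MPS1i Input 106 CPM, a log2 ratio of 0.03 (-0.14 to 0.20), whereas J2 went from 196 CPM to 105 CPM, a ratio of -0.90 (-1.03 to -0.78). From 50 to 100 kb the Input ratio was 0.16 (-0.05 to 0.37). Beyond 100 kb the Input ratios ran from -0.79 to -0.51 and none of their intervals reached 0.

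**Figure D2:**
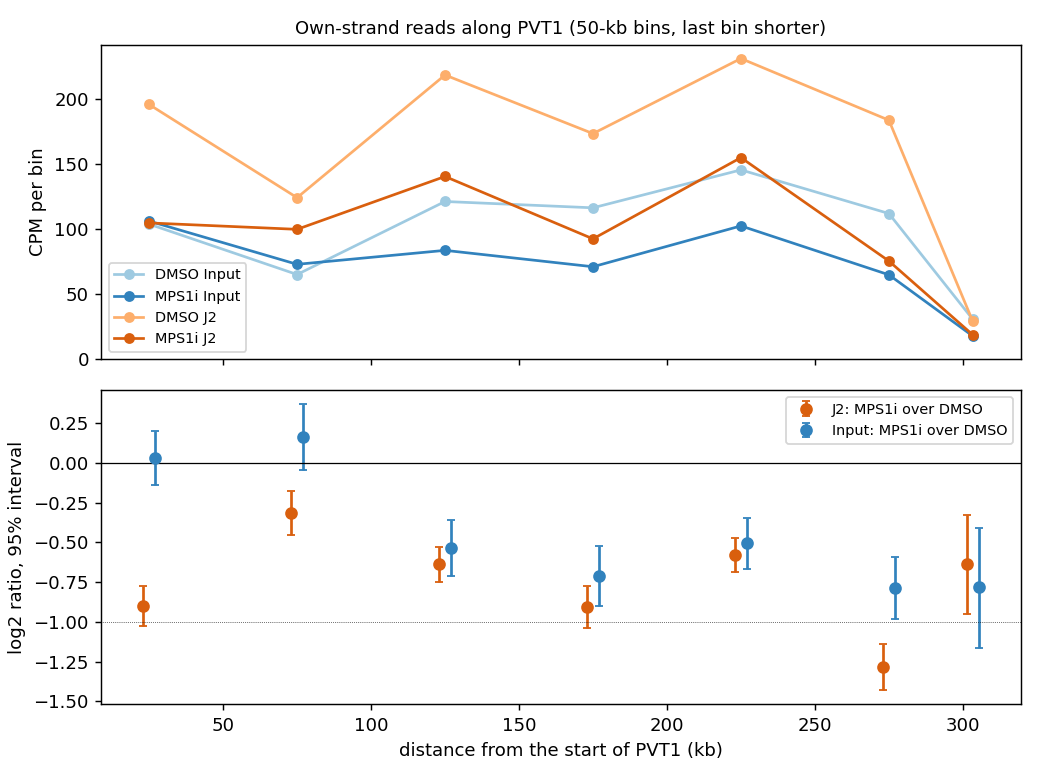
Own-strand reads along PVT1 by distance from its start in kb: CPM per bin in each library (top, points joined by lines) and log2 of MPS1i over DMSO in J2 and in Input with 95% counting intervals (bottom). The J2 ratios are below 0 in all 7 bins, while the Input ratios of the first 2 bins are 0.03 and 0.16.

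Of the 91 own-strand J2 regions with at least 50 counts, 42 were called lower and 0 higher, where 27.2% of all such J2 regions were called lower and 12.5% higher. Of 22 Input regions, 8 were called lower and 3 higher, where the shares over the table were 14.4% and 16.3%. These regions belong to 1 gene and are not independent of each other. The most-read J2 region, chr8:128010450-128012526 in an intron, fell from 303 reads to 67 (-1.63, -2.03 to -1.24), with MLT1A and L3 repeats listed. The most-read Input region, chr8:128100131-128100582 near the end of the gene, went from 126 reads to 45 (-1.09, -1.61 to -0.59). In contrast chr8:128020044-128020761, an intronic J2 region with an MLT1E2 repeat, had 138 and 127 reads (0.43, 0.07 to 0.79). The Input region chr8:128018783-128019312 had 15 and 44 reads (1.95, 1.08 to 2.90) and was called higher.

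J2 over Input differed among PVT1 regions with the repeats they held. Regions with an Alu on the gene's strand had 200, 142, 1188 and 652 reads (DMSO and MPS1i Input, then DMSO and MPS1i J2), which was 4.52% and 5.65% of the gene's Input reads and 10.5% and 14.2% of its J2 reads. Their J2 over Input in DMSO was 1.95 (1.74 to 2.18), against 0.31 (0.23 to 0.39) for regions with no repeat on that strand. Covered Alu sequence was longer in the J2 table (26.1 kb against 9.63 kb), and per kb the ratios were 0.52 and 0.21. Over all genes the same categories gave 1.17 and 0.15, or 0.48 and -0.41 per kb. MPS1i over DMSO in J2 was -0.32 (-0.46 to -0.18) for the Alu regions of PVT1. It was -0.89 (-0.99 to -0.80) for those with no repeat on the gene's strand, which can hold a repeat on the other strand. Over all genes it was -0.47 with an Alu and -0.21 without a repeat on the gene's strand, the reverse order.

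SNHG5 (chr6:85660950-85678748, minus strand) hosts the snoRNA SNORD50A. Its 14 Input and 24 J2 regions inside the gene held 84 reads in DMSO Input, 70 in MPS1i Input, 699 in DMSO J2 and 525 in MPS1i J2, or 13.2 CPM, 14.4 CPM, 71.4 CPM and 78.4 CPM. All 6 of its J2 regions with at least 50 counts were intergenic by their HOMER annotation, as were its most-read Input regions. They lie inside the gene by GENCODE, and whether their reads are intronic SNHG5 RNA was not tested. For all regions together, both J2 libraries stood well above both Input libraries, and the treatments lay close together. J2 over Input was 2.44 in DMSO (2.11 to 2.78) and 2.44 in MPS1i (2.08 to 2.82), called higher in both. The covered length was 2.25 kb in Input and 5.24 kb in J2, and per kb both ratios were 1.22, still called. Counted as at most 1 read per region, they were 0.32 in DMSO and -0.65 in MPS1i, and over regions matched between the tables they were 2.19 and -2.79, in each case on under 50 counts. MPS1i over DMSO was 0.14 (-0.03 to 0.30) in J2 and 0.13 (-0.34 to 0.61) in Input, and the change of J2 over Input was 0.00 with an interval from -0.48 to 0.48.

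The J2 reads of SNHG5 lay in regions with repeats. Those with an Alu on the gene's strand held 54.5% of its reads in DMSO J2 and 45.3% in MPS1i J2. Those with an L1 on that strand and no Alu held 37.6% and 34.1%, and those with no repeat on that strand held 0.858% and 0.571%. Regions with an Alu on the opposite strand alone held 47 and 100 of its J2 reads (1.64, 1.12 to 2.17). Over all genes, regions with no repeat on the gene's strand held 51.0% and 53.0% of J2 reads, and such regions can hold a repeat on the other strand. The most-read SNHG5 region, chr6:85669766-85670792 with AluSx1 and L1MC5, had 255 and 157 J2 reads (-0.15, -0.45 to 0.14), and its neighbour chr6:85668463-85668933, in L1MC5, had 164 and 113 (0.01, -0.35 to 0.37). At the Input regions chr6:85669925-85670178 and chr6:85668937-85669311, also in L1MC5, 31 and 14 reads and 17 and 8 reads were counted. Of the 6 J2 regions with at least 50 counts, chr6:85664627-85664928 was called higher, from 13 reads to 61 (2.78, 1.90 to 3.77), and no other was called. No repeat was listed on its strand, and its annotation names FLAM_A, an Alu-related monomer.

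SNHG16 (chr17:76557766-76565348, plus strand) hosts SNORD1A, SNORD1B and SNORD1C. Inside it 139 reads were counted in DMSO Input, 15 in MPS1i Input, 146 in DMSO J2 and 31 in MPS1i J2, or 21.8 CPM, 3.10 CPM, 14.9 CPM and 4.63 CPM. Both MPS1i libraries lay below both DMSO libraries. MPS1i over DMSO was -2.81 (-3.69 to -2.04) in Input and -1.69 (-2.30 to -1.12) in J2, both called lower. J2 over Input was -0.55 (-0.89 to -0.20) in DMSO and 0.58 (-0.35 to 1.57) in MPS1i, the latter on under 50 counts. The change of this ratio, 1.10 (0.16 to 2.04), was called higher.

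These SNHG16 values rest on 1 region in each table. In Input, chr17:76561775-76562443, with an AluYb8 and the name SNORD1A, held 109 reads in DMSO and 1 in MPS1i, while chr17:76560513-76560701 held 20 and 8. In J2, chr17:76560445-76560982, with an AluSp and the name SNORD1B, held 138 and 20 (-2.24, -2.99 to -1.56), and the next, chr17:76562063-76562222, held 1 and 6. Without the most-read region of each table the J2 value was 1.01 and the Input value -0.70, both on under 50 counts. AluYb8 is a young subfamily with many near-identical copies, and how reads with several matches were counted is not given in the sources used here. The nearest gene over the 3 ratios was KAT7, a histone acetyltransferase, at a distance of 0.58, farther than for the other genes inside which counts sufficed.

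GAS5 (chr1:173863900-173868882, minus strand), known as a transcript that accumulates on growth arrest, had 1 own-strand region inside it in each table. In Input, chr1:173867833-173867938 had 2 reads in DMSO and 19 in MPS1i (3.65, 1.59 to 6.79), and the J2 region had 0 and 3. All of these stayed below the minimum of 50. By name GAS5 had 13 and 31 reads in Input and 22 in each J2 library, again below it for MPS1i over DMSO. Its J2 over Input in MPS1i was -0.96 (-1.82 to -0.13) by name, not called. It passed 2-fold when scaled without mitochondrial regions (-1.28), by TMM factors (-1.20), by median of ratios (-1.22) or per kb (-1.07). Apart from the value per kb, these settings lower the ratio of every name alike, by 0.31, 0.23 and 0.26, so the shift is not particular to GAS5.

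OIP5-AS1 (chr15:41283990-41309737, plus strand) had 101 reads inside the gene in DMSO Input, 14 in MPS1i Input, 419 in DMSO J2 and 67 in MPS1i J2, or 15.8 CPM, 2.89 CPM, 42.8 CPM and 10.0 CPM. The MPS1i library was the lower one in both pairs. MPS1i over DMSO was -2.10 (-2.49 to -1.72) in J2 and -2.45 (-3.38 to -1.64) in Input, both called lower, and without the most-read region of each table the values were -1.67 and -2.07, still called. J2 over Input was 1.43 (1.12 to 1.76) in DMSO and 1.79 (0.95 to 2.74) in MPS1i, called higher in both. In DMSO it was 0.70 per kb of covered region and 0.74 over regions matched between the tables, neither called. The change of the ratio was 0.32 (-0.55 to 1.20). The leading J2 region, chr15:41293934-41294717 in an intron, had 224 and 25 reads (-2.62, -3.27 to -2.02) and was called lower. A second gene on the same strand, AC087721.2, overlaps OIP5-AS1, and reads of the 2 cannot be told apart.

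**Figure D3:**
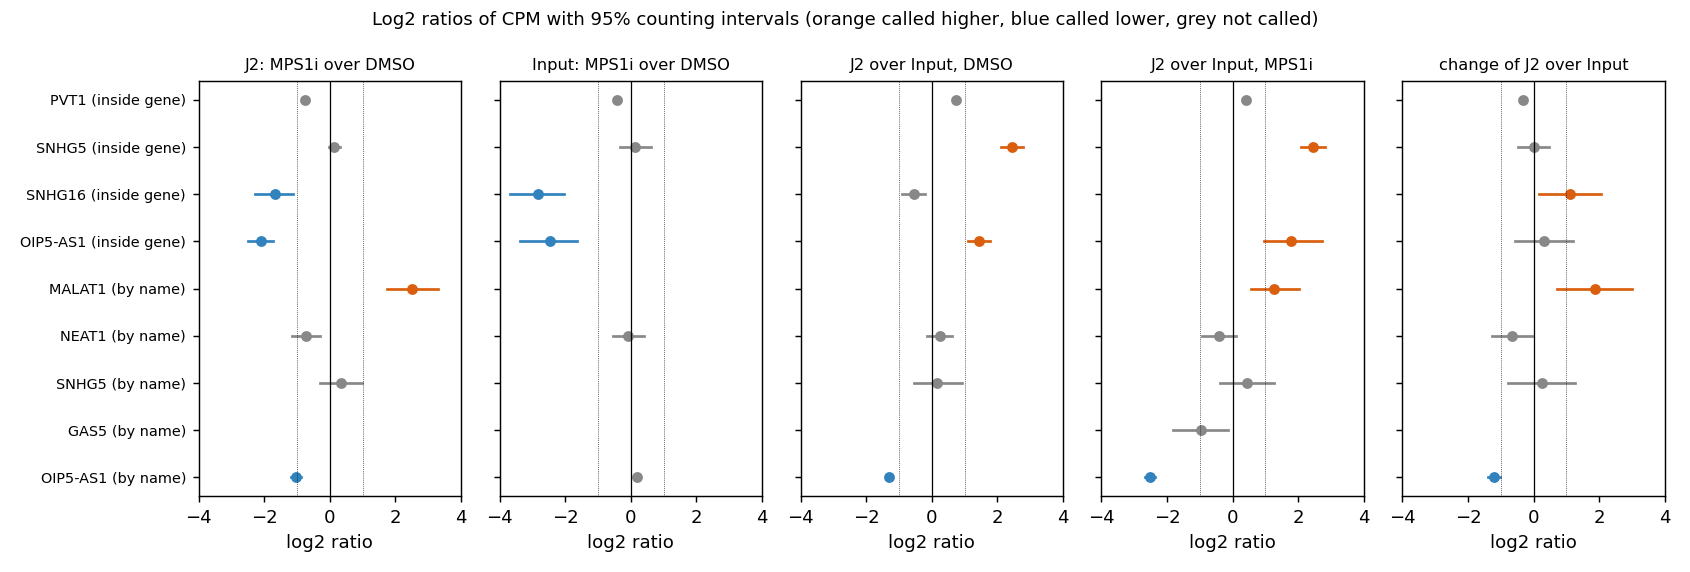
Log2 ratios of CPM (points) with 95% counting intervals (lines) for each gene and assignment with enough counts, in 5 comparisons; dotted lines mark 2-fold. Inside the gene, OIP5-AS1 and SNHG16 lie left of 2-fold for MPS1i over DMSO in both J2 and Input, and SNHG5 and OIP5-AS1 lie right of it for J2 over Input.

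By name, with most reads in CHP1, the OIP5-AS1 values went another way. The Input region chr15:41262883-41263053, 171 bp placed in intron 4 of CHP1 by its annotation, but also over a GENCODE exon, with a MIR repeat, alone held 1953 reads in DMSO and 1832 in MPS1i. With it, Input was 353 CPM in DMSO and 404 CPM in MPS1i (0.19, 0.10 to 0.28), and without it the Input ratio was -0.89. J2 by name went from 142 CPM to 70.2 CPM (-1.02, -1.17 to -0.87), called lower. J2 over Input by name was -1.31 (-1.41 to -1.21) in DMSO and -2.52 (-2.67 to -2.38) in MPS1i, called lower in both. Without the most-read region of each table these became 1.10 and 0.10. The change by name was -1.21 (-1.39 to -1.04), called lower, and it was not called without that region.

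MALAT1 by name had 19 own-strand reads in DMSO Input, 22 in MPS1i Input, 19 in DMSO J2 and 73 in MPS1i J2, or 2.98 CPM, 4.54 CPM, 1.94 CPM and 10.9 CPM. MPS1i J2 stood above the other 3. MPS1i over DMSO in J2 was 2.49 (1.75 to 3.30), called higher, J2 over Input in MPS1i was 1.26 (0.56 to 2.02), called higher, and the change was 1.86 (0.73 to 2.99), called higher. J2 over Input in MPS1i was 0.95 when scaled without mitochondrial regions and 0.70 per kb, neither called, and -0.15 with both strands summed. The change was 1.21 without the most-read region, not called. With at most 1 read per region the ratio was 0.31 and the change -0.067, and MPS1i over DMSO in J2 was 1.76, all on under 50 counts. The name covered 51 J2 regions on this strand, all outside the gene, and not all of them held a read. The 2 most-read were chr11:65481380-65481668, with an AluY, at 0 and 7 reads, and chr11:65494719-65494981 at 3 and 6. Just before the gene, on the opposite strand, the Input region chr11:65497087-65497374 had 19 reads in DMSO and 45 in MPS1i (1.64, 0.84 to 2.50), called higher, and in J2 chr11:65496893-65497455 had 5 and 9. Over the MALAT1 gene the opposite strand had 7 and 0 Input reads and 0 and 2 J2 reads.

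NEAT1 by name had 90, 65, 163 and 67 own-strand reads in DMSO and MPS1i Input, then DMSO and MPS1i J2, or 14.1 CPM, 13.4 CPM, 16.6 CPM and 10.0 CPM. MPS1i J2 was the lowest. The ratios were -0.73 (-1.17 to -0.32) in J2 and -0.07 (-0.56 to 0.40) in Input, and none of its 5 comparisons was called. Per kb, J2 over Input in MPS1i was -1.01 (-1.52 to -0.49), called lower. The 2 most-read J2 regions lay in introns of FRMD8, chr11:65408660-65409081 with 27 and 6 reads and chr11:65406601-65407220 with 24 and 10. Over the NEAT1 gene itself the opposite strand had 55 and 26 Input reads and 24 and 13 J2 reads. Upstream on that strand, chr11:65418524-65419156 fell from 53 to 16 in Input (-1.33, -2.24 to -0.50), called lower. The isoforms of NEAT1 could not be compared, since no own-strand region overlapped the gene. By name NEAT1 lay nearest to ABHD17C, a depalmitoylase (distance 0.060 among 8967 genes).

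KCNQ1OT1 by name had 1 and 15 own-strand reads in Input and 0 and 8 in J2. Its opposite strand, which is that of KCNQ1, had 4 and 3 reads in Input and 2 and 16 in J2. The 3-count floor was 0.470 CPM, 0.619 CPM, 0.306 CPM and 0.448 CPM in the 4 libraries, so these levels lie close to what the depth can show.

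On the opposite strand OIP5-AS1 held the most reads of any region over the 8 genes. A region listed on the minus strand, chr15:41283968-41309270 in J2 and ending at 41309243 in Input, covered 98.2% of the gene, and 35 repeats were listed for it. It had 647 reads in DMSO Input, 281 in MPS1i Input, 4080 in DMSO J2 and 1565 in MPS1i J2. Both J2 libraries were far above both Input libraries, and within each pair DMSO was the higher. J2 over Input was 2.04 (1.92 to 2.16) in DMSO and 2.01 (1.83 to 2.20) in MPS1i, over regions of 25303 bp and 25276 bp, so covered length hardly differed. MPS1i over DMSO was -0.83 (-0.92 to -0.75) in J2 and -0.81 (-1.01 to -0.60) in Input, and the change of the ratio was -0.03 (-0.25 to 0.19). The region gives 1 count, so where in the gene its reads lie is not shown, and in J2 it also touches OIP5, which lies on that strand.

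The opposite strand thus took 86.5% of the reads over OIP5-AS1 in DMSO Input (Wilson 95% interval 83.9 to 88.8), 95.3% in MPS1i Input (92.2 to 97.2), 90.7% in DMSO J2 (89.8 to 91.5) and 95.9% in MPS1i J2 (94.8 to 96.8). The own-strand regions covered only 4.2 kb in Input and 7.0 kb in J2, against 25276 bp and 25303 bp on the opposite strand. With the own-strand mature RNA also not measured, these shares are not a balance of transcription between the strands. The medians over all genes with at least 50 counts were 17.8%, 23.3%, 11.2% and 19.1%, and 9.06% to 15.2% of genes had a larger share than OIP5-AS1. NEAT1, with no own-strand region, had 55 of 55 reads on the opposite strand in DMSO Input (100%, 93.5 to 100), the one library where it reached 50 reads. PVT1 and SNHG5 were at the other end, with 1.20% to 2.51% and 0.851% to 4.55%. SNHG16 had 20.1% in DMSO Input and 5.19% in DMSO J2.

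**Figure D4:**
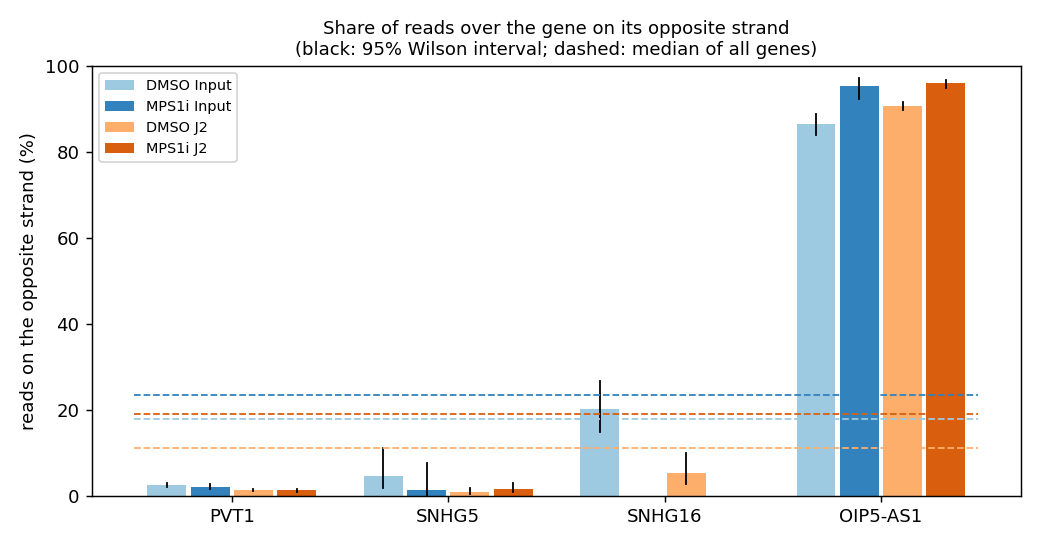
Share of the reads over a gene that are listed on its opposite strand, in percent, per library (bars), for the 4 genes with reads on both strands and at least 50 counts, with 95% Wilson intervals (black lines) and the median over all genes in that library (dashed); SNHG16 is shown for the libraries with at least 50 counts. OIP5-AS1 lies between 86.5% and 95.9% and PVT1 at or under 2.51%. The shares are not adjusted for the covered length on each strand.

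Long regions on the opposite strand occurred at other members too. At SNHG16, the J2 region chr17:76557765-76563705 covered 78.3% of the gene and had 35 and 12 reads in Input and 8 and 9 in J2. At GAS5, the J2 region chr1:173863941-173867973 covered 80.9% of the gene, with 4 and 7 reads in Input and 31 and 10 in J2. At PVT1, a region of 148031 bp with an end near the gene's start covered 48.3% of the gene. It had 65 and 33 reads in Input and 67 and 34 in J2. J2 over Input in DMSO was -2.75 (-4.07 to -1.61) at SNHG16, 2.34 (0.84 to 4.30) at GAS5 and -0.57 (-1.09 to -0.06) at PVT1. The direction thus differed among members, on under 50 counts for the first 2.

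The counts of members called are to be read against those over all genes. Inside the gene, 4 members were measured for MPS1i over DMSO in J2. Of these 2 were called lower (SNHG16, OIP5-AS1) and 0 higher, where 20.8% of all genes were called lower and 15.6% higher (36.4% in all). In Input the same 2 of 4 were called lower and 0 higher, where the shares were 16.8% and 12.6% (29.3% in all). J2 over Input was called higher for 2 of 4 in DMSO and 2 of 3 in MPS1i (SNHG5 and OIP5-AS1 both times), where 20.3% and 18.2% of all genes were, and lower for none, where 9.65% and 9.15% were (29.9% and 27.3% in either direction). The change of J2 over Input was called higher for 1 of 4, where 8.87% of all genes were, and lower for none, where 7.88% were (16.7% in all). With at most 4 members measured, these counts do not set the members apart from other genes.

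By name, 1 of 4 measured members was called higher (MALAT1) and 1 lower (OIP5-AS1) for MPS1i over DMSO in J2, where 21.8% of all names were called higher and 17.0% lower (38.8% in all). In Input none of 2 was called, where 17.9% were called higher and 13.6% lower (31.4% in all). J2 over Input was called lower for 1 of 3 in DMSO (OIP5-AS1), where 9.1% were, and higher for none, where 21.3% were (30.4% in all). In MPS1i it was called higher for 1 of 5 (MALAT1) and lower for 1 (OIP5-AS1), where 18.7% and 8.37% were (27.1% in all). The change was called higher for 1 of 4 (MALAT1) and lower for 1 (OIP5-AS1), where 9.29% and 7.62% were (16.9% in all). The medians over all names were -0.01 in J2 and -0.04 in Input.

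Related genes were taken from lists, and their values inside the gene are given, to be read against the shares called over all genes (for MPS1i over DMSO, 20.8% lower and 15.6% higher in J2, 16.8% lower and 12.6% higher in Input). Of 14 further snoRNA host genes, 4 had at least 50 counts in J2. SNHG6 was called higher for MPS1i over DMSO (42 and 64 reads, 1.16, 0.57 to 1.75) and SNHG20 lower (133 and 37 reads, -1.30, -1.86 to -0.76). In Input 1 of 6 was called lower, ZFAS1, a host of SNORD12 genes, with 3586 and 1039 reads (-1.39, -1.49 to -1.29). For J2 over Input in DMSO, 4 of 6 were called lower (SNHG3, SNHG6, SNHG7 and ZFAS1) and 1 higher (SNHG20), where 9.65% of all genes were called lower and 20.3% higher. Values ran from -6.43 (SNHG3, 56 Input and 1 J2 reads, -11.8 to -3.89) to 1.15, with a median of -2.28, against 0.36 over all genes. SNHG5, at 2.44, lay above all 6, but none of these ratios is adjusted for covered length. For SNHG5 that length was 2.25 kb in Input and 5.24 kb in J2, and per kb its ratio was lower, as given above. Values per kb are not given for the 6.

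Of 24 other long noncoding RNAs, 14 were measured in J2 and 15 in Input. In J2, 3 were called lower and 0 higher for MPS1i over DMSO, namely LINC-PINT (2905 and 846 reads, -1.23, -1.34 to -1.12), LINC00511 (2805 and 824, -1.22, -1.33 to -1.11) and LINC01578 (1062 and 255, -1.51, -1.71 to -1.31). Values ran from -1.51 to 0.70 with a median of -0.33, and 3 of 14 is close to the 20.8% called lower over all genes. In Input, DLEU2 was called lower (858 and 315 reads, -1.05, -1.24 to -0.86) and none higher. For J2 over Input in DMSO, CRNDE (1.08), LINC01578 (1.14) and SNHG14 (1.08) were called higher and none of the 15 lower. Over all genes 20.3% were called higher and 9.65% lower in this comparison. PVT1, at -0.75 in J2, lay inside the range of this list.

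Genes of paraspeckle proteins, the protein partners of NEAT1, formed another list. In J2, 8 of 12 measured were called lower and 0 higher for MPS1i over DMSO, where 20.8% and 15.6% of all genes were, with a median of -1.19 against -0.22 over all genes. Among them were NONO, PSPC1, RBM14, MATR3, EWSR1, TAF15 and SMARCA4. The lowest were SMARCA4, a chromatin remodelling ATPase, with 559 and 78 reads (-2.29, -2.65 to -1.95), and EWSR1, an RNA-binding protein, with 674 and 107 (-2.11, -2.42 to -1.81). In Input, 6 of 13 were called lower and 0 higher, where 16.8% and 12.6% of all genes were, with a median of -0.99 against -0.23. EWSR1 was again low, with 264 and 36 Input reads (-2.48, -3.02 to -1.97). How many of these reads are intronic was not tallied for these genes, so they are not a measure of the mature mRNAs.

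Among 12 neighbours and partners of the members, 5 were measured in J2 and 3 were called lower for MPS1i over DMSO, where 20.8% of all genes were. They were OIP5, a centromere protein gene beside OIP5-AS1 (404 and 72 reads, -1.94, -2.32 to -1.58), ZBTB37, opposite GAS5 (133 and 36, -1.34, -1.91 to -0.80), and SLC22A18, in the KCNQ1OT1 domain (67 and 21, -1.13, -1.91 to -0.40). In Input, OIP5 alone of 6 was called, lower (62 and 16, -1.56, -2.45 to -0.75). MYC, upstream of PVT1, was under the minimum inside the gene, with 9 and 26 reads in Input and 5 and 4 in J2. By name, unlike the values above, it was called higher in Input, with 16 and 42 reads (1.79, 0.93 to 2.72).

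Markers of the labelled cell type were present in part. Of 10 lung epithelium genes 4 reached 50 counts inside the gene for MPS1i over DMSO in J2 and 4 in Input, and none was called in either. The list summed to 514 CPM in DMSO Input and 836 CPM in MPS1i Input, and to 95.6 CPM and 86.7 CPM in J2. KRT18 held most of the Input sums, with 2405 of 3279 reads in DMSO and 3386 of 4048 in MPS1i, so these sums largely follow 1 gene. In DMSO J2 KRT18 had 7 reads. Of 5 fibroblast genes FAP alone was measured, and it was called higher in J2 (23 and 260 reads, 4.05, 3.43 to 4.73) and Input (15 and 154 reads, 3.76, 2.99 to 4.63). Inside the gene COL1A1 and COL3A1 had 0 reads in all 4 libraries, and COL1A2 and PDGFRB at most 6. By name COL3A1 had 12 reads in MPS1i Input, 6 in DMSO J2 and 12 in MPS1i J2. Inside the gene the list summed to 2.35 CPM against 32.4 CPM in Input and 2.55 CPM against 39.7 CPM in J2 (DMSO against MPS1i). Nearly all of this was FAP, with 154 of 157 reads in MPS1i Input and 260 of 266 in MPS1i J2, so the sums do not describe the list. None of 4 leukocyte genes reached 50 counts inside the gene, and the list summed to 0 CPM against 2.48 CPM in Input and 0.408 CPM against 1.79 CPM in J2 (DMSO against MPS1i). KRT19, SFTPB and SFTPC, the latter 2 surfactant genes of alveolar cells, had 0 reads inside the gene in all 4 libraries. By name they had at most 3 reads in a library. The part of these in the results above was not tested.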

How the data were processed

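Read counts were deposited in 2 tables, 1 for Input and 1 for J2, as raw whole-number counts per stranded region; the authors' tables also give each region's length in bp, HOMER annotation, Gene Name and repeat, per the file headers. The submitters' processing notes name STAR, featureCounts, HOMER, cutadapt, Trim Galore and Trimmomatic, and the build GRCh38 (hg38). Region calling, the removal of duplicates and the counting of reads with several matches: not given in the sources used here. The labels mention no molecular identifiers, so intervals cover counting error only.

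Counts were summed per Gene Name on the gene's own strand and, as an alternative, over regions lying within a GENCODE 29 gene (same build) on its strand, with bedtools 2.31.1, and scaled to CPM. A gene strand was found for 25095 names by symbol and 1178 by Ensembl ID, and for 1301 both strands were summed. Ratios carry exact 95% intervals. The change of J2 over Input uses a delta-method interval with 0.5 added to each count, and needs 50 J2 and 20 Input counts. A call needs 2-fold, 50 counts and an interval excluding 1. Single regions were called by the same rule. TMM factors came from edgeR 4.0.16, used for scaling alone. Likeness is the Euclidean distance over 3 log2 ratios (J2 and Input, MPS1i over DMSO, and J2 over Input in DMSO) among genes with 100 counts in each pair. Genes named were the 8 members, listed genes that were called, the nearest gene, and for each member the 2 most-read own-strand regions of a table and called regions. The opposite-strand regions, KRT18 and a few uncalled regions were named after their values were seen. The members and lists were chosen with earlier results of these data known. Promoter windows were found in RefSeq for 5 of the 8 members. Some listed genes are not reported here by name.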

Additional observations from a re-analysis of the deposited data

Results flagged for a closer look

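For OIP5-AS1 by name, on its own strand, MPS1i over DMSO moved opposite ways in the 2 kinds of library, -1.02 on the log2 scale in J2 and 0.19 in Input, with counting intervals that exclude 0 in both. With 1 library per group this difference was not tested across replicates. A single Input region in CHP1, annotated as intronic but also over a GENCODE exon, held 1953 of 2254 DMSO reads and 1832 of 1955 MPS1i reads. Without the most-read region of each table the values were -1.89 and -0.89, and inside the OIP5-AS1 gene they were -2.10 and -2.45, so in neither case were the directions opposite.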

How the results depend on the processing

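No paired analysis was possible because each group has 1 library. Counts of members called changed with the setting as follows, where the comparisons are listed as MPS1i over DMSO in J2, the same in Input, J2 over Input in DMSO, J2 over Input in MPS1i, and the change of J2 over Input. By name, 2, 0, 1, 2 and 2 members were called. With a minimum of 200 counts, 1 was called in J2, 1 for J2 over Input in MPS1i and 1 for the change. With at most 1 read per region, 0 were called in any of the 5. With no minimum, 3 were called in Input (KCNQ1OT1, SNHG16 and GAS5, all higher), 3 in J2 (KCNQ1OT1 added as higher) and 3 for J2 over Input in MPS1i (KCNQ1OT1 added as lower). Without the most-read region of each gene, 1 was called for J2 over Input in MPS1i and 0 for the change. With both strands summed, 0 were called for J2 over Input in MPS1i, and 3 in J2, all higher (MALAT1, PVT1 and SNHG5), while OIP5-AS1 was no longer called there (-0.87). The call for J2 over Input in DMSO was then MALAT1, lower, in place of OIP5-AS1, and those for the change were MALAT1, higher, and GAS5, lower. TMM and median of ratios each called 3 for J2 over Input in MPS1i, as did values per kb. Over matched regions, 0 were called there and 1 for the change. Inside the gene, 2 were called in Input, 2 for J2 over Input in DMSO and 1 for the change.

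The alternatives to the values inside the gene were chosen after seeing the data. There 2, 2, 2, 2 and 1 members were called. A minimum of 200 counts left 1 in J2, 0 in Input, 1 for J2 over Input in MPS1i and 0 for the change. At most 1 read per region left 0 in all 5, with 1 member measured in each. Without the most-read region 1 remained in number in J2, 1 in Input and 0 for the change. Matched regions left 0 for both J2 over Input comparisons and the change, again with 1 member measured. Per kb left 1 for J2 over Input in DMSO, and thinning to equal depth left 0 for the change. TMM, median of ratios and scaling without mitochondrial regions called the same number inside the gene in each of the 5 comparisons. For all genes inside the gene, TMM and median of ratios raised MPS1i over DMSO by 0.13 and 0.15 in J2 and by 0.15 and 0.17 in Input.

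Among values that were called, or became called, signs reversed as follows. OIP5-AS1 by name reversed in Input inside the gene (-2.45), and was also negative there, uncalled, without the most-read region (-0.89) and at most 1 read per region (-0.53). For its J2 over Input in DMSO they reversed at most 1 read per region (0.023), without the most-read region (1.10), with both strands (0.28), inside the gene (1.43) and over matched regions (1.07). For J2 over Input in MPS1i they did so without that region (0.10) and inside the gene (1.79), and for the change inside the gene (0.32). MALAT1 by name reversed with both strands for J2 over Input in MPS1i (-0.15) and at most 1 read per region for the change (-0.067). Inside the gene, SNHG16 reversed in J2 without its most-read region (1.01), and at most 1 read per region in Input (0.96) and for the change (-1.16). OIP5-AS1 did for J2 over Input in DMSO at most 1 read per region (-0.36), and SNHG5 in MPS1i at most 1 read per region (-0.65) and over matched regions (-2.79). Of values not called, 8 of 11 by name and 5 of 10 inside the gene changed sign under at least 1 setting. J2 over Input in DMSO by name did so most often, for NEAT1 (0.24) under 7 of 11 settings, down to -0.79, and for SNHG5 (0.17) under 6 of 12, down to -0.62. Apart from fewer counts and the CHP1 region, the cause was not tested.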

Other observations

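Introns of CHP1 whose regions carry the name OIP5-AS1 differed among themselves in J2. The regions chr15:41274140-41274410 (146 and 15 reads, log2 -2.73, -3.61 to -1.97), chr15:41276278-41277160 (62 and 5, -3.08, -4.76 to -1.78) and chr15:41269262-41270127 (58 and 11, -1.85, -2.93 to -0.91) were called lower under MPS1i. The most-read one, chr15:41278385-41278765, had 406 and 288 reads (0.05, -0.17 to 0.27) and was not called. By name OIP5-AS1 lay nearest to SERPINC1 (distance 0.13), and inside the gene to ZYG11B (0.31). SNHG5 inside the gene lay nearest to ZIC5 (0.24), which had 86, 76, 826 and 657 reads in Input (DMSO, MPS1i) and J2 (DMSO, MPS1i).

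Regions named GAS5 on the opposite strand all lay in ZBTB37 and had 45 and 20 Input reads and 132 and 36 J2 reads. One of them, chr1:173879186-173879642, had 21 and 1 reads in J2, under the minimum of 50 counts. Regions named SNHG5 on the opposite strand had 40 and 70 reads in Input and 58 and 121 in J2, all outside genes of that strand.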
